A study of Danio rerio with 18 samples.

Results

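The genes described here are 4 members of the vertebrate visual cycle, stra6, rpe65a, rlbp1a and rgrb, taken as every probe set whose platform gene symbol is one of those names. They are 4 of 8793 genes with a symbol on the Affymetrix zebrafish array and were measured by 5 of the 15502 probe sets tested: 2 probe sets for rpe65a and 1 for each other gene. RNA came from embryos of strain AB at 52 hours post fertilization, in 6 groups of 3 arrays each. The groups were young (smarca4) mutant retina with the retinal pigment epithelium (RPE) attached, wild type retina with RPE attached, young (smarca4) mutant retina, wild type retina, young (smarca4) mutant whole embryos and wild type whole embryos. Each array held a pool labelled as a separate biological replicate: 6 tissues in each mutant RPE-attached pool, 9 in mutant retina replicate 2, and 10 tissues or embryos in every other pool. Mutants were staged by their wild type siblings, and the labels name no specific allele. The RPE-attached pools hold retina as well as RPE, so no group is RPE alone. The series asked which retinal and RPE genes depend on Smarca4, an ATPase that remodels chromatin.

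The visual cycle returns all-trans retinoid, the product of light absorption by an opsin, to the 11-cis form that an opsin can bind again. In vertebrates most of this work is done in the RPE, a pigmented sheet behind the photoreceptors, and a part of it in Muller glia, the radial glia of the retina. Stra6 is a membrane receptor that takes up retinol from its plasma carrier, Rbp4. Rpe65 is the isomerase that forms 11-cis retinol, Rlbp1 (CRALBP) binds 11-cis retinoids inside the cell, and Rgr is an opsin-like protein that isomerizes retinal in the light. Zebrafish carry a pair of rlbp1 genes, which are divided between RPE and Muller glia.

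Values are log2 signals. Differences are given as log2 difference ± SE from limma with Benjamini-Hochberg adjustment over the 15502 probe sets, and a difference was called at an adjusted p under 0.05. A fold is given only where the lower group had a mean of at least 5.15, the 30th percentile of group means. Levels are compared between groups within 1 probe set and not between probe sets. smarca4a, which checks the labels, was lower in the mutant in each tissue on both of its probe sets, with log2 differences of -2.26 and -1.55 in retina, -1.64 and -1.28 in RPE-attached retina and -2.43 and -1.64 in whole embryos, each called. Mutant RPE-attached arrays stood apart from the rest in spread and in hybridization controls: the median SD per probe set was 0.175 there, against 0.111 to 0.123 in the other groups. Their 18 hybridization control probe sets averaged 11.33 ± 0.12 (SD, n = 3), against 9.66 ± 0.09 in wild type RPE-attached retina. The 27 poly-A control probe sets averaged 4.62 ± 0.14 in mutant RPE-attached retina and 5.58 ± 0.04 in wild type RPE-attached retina, the group that stood apart there, with means from 4.66 to 4.98 in the other groups. These differences run along genotype, pool size and RPE attachment. Their part in the results on RPE-attached retina, also where it is compared with bare retina, therefore cannot be told apart.

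The label of the RPE-attached pools was checked on melanosome genes. dct, an enzyme of melanin synthesis, averaged 9.88 ± 0.22 in wild type RPE-attached retina, against 7.32 ± 0.17 in wild type bare retina (SD, n = 3 each). In mutants it averaged 10.43 ± 0.16 in RPE-attached retina, against 7.38 ± 0.21 in bare retina. tyr, the first enzyme of that pathway, averaged 5.59 ± 0.17 in wild type RPE-attached retina and 5.17 ± 0.20 in wild type bare retina. With RPE attached in wild type, 7 of 16 pigment and identity genes were higher and 1 lower, where 29.2% of all probe sets were. The lower gene was otx2b (-0.48), and mitfb was level, at 5.63 ± 0.03 with RPE attached and 5.68 ± 0.05 without. Neural crest and chromatophore genes were higher there as well, as given below, so the check does not tell RPE from other pigment cells. gfap, an intermediate filament of glia, lay near the 5.15 limit in bare retina, at 5.14 ± 0.04 in mutants and 5.21 ± 0.16 in wild type. glula, a glutamine synthetase of Muller glia, averaged 8.84 ± 0.29 in mutant bare retina and 8.62 ± 0.20 in wild type bare retina. In RPE-attached retina it averaged 7.83 ± 0.16 in mutants and 8.54 ± 0.02 in wild type. It was highest in whole embryos, at 10.36 ± 0.23 in mutants and 10.22 ± 0.22 in wild type, so it does not read Muller glia alone. Other genes of the Muller glia list moved in both directions, as given below.

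stra6 was high wherever RPE or the whole body was present and low in bare retina. Its log2 signals were 8.32, 7.63 and 8.07 in mutant RPE-attached retina and 7.70, 7.77 and 7.43 in its wild type counterpart. In bare retina they were 5.64, 5.92 and 6.25 in mutants and 5.46, 5.64 and 5.23 in wild type. In whole embryos they were 8.54, 8.34 and 8.69 in mutants and 8.45, 8.17 and 8.10 in wild type. All 6 bare retina arrays lay below all others, and the mutant and wild type bare retinas did not overlap but all but touched, at 5.64. By group mean the order was mutant embryo, wild type embryo, mutant RPE-attached, wild type RPE-attached, mutant retina and wild type retina, and each of the first 3 groups overlapped the next.

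rpe65a was highest in RPE-attached retina on both probe sets. On the probe set whose identifier ends in A1_at (the A1 probe set) it measured 10.01, 9.68 and 9.94 in mutant RPE-attached retina and 10.16, 9.62 and 9.71 in its wild type counterpart. In bare retina the values were 7.29, 7.12 and 7.81 in mutants and 6.28, 6.42 and 6.62 in wild type. In whole embryos they were 8.35, 7.91 and 7.68 in mutants and 7.88, 7.82 and 7.73 in wild type. The genotypes overlapped in RPE-attached retina and in embryos, and in bare retina every mutant array lay above every wild type array. The mutant bare retina overlapped the wild type embryo, whereas the wild type bare retina was the lowest group and stood alone.

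On the other one, which ends in S1_at (the S1 probe set), rpe65a measured 7.54, 7.18 and 7.49 in mutant RPE-attached retina and 7.35, 6.87 and 7.06 in its wild type counterpart. Its bare retina values were 5.90, 5.82 and 5.95 in mutants and 5.58, 5.53 and 5.47 in wild type, and in whole embryos 6.22, 5.65 and 5.58 in mutants and 5.97, 5.63 and 5.70 in wild type. As on the A1 probe set, wild type bare retina had the lowest mean, but 1 mutant embryo array reached its level of 5.58. Mutant bare retina, mutant embryo and wild type embryo overlapped one another in that order of means.

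rlbp1a had a pattern unlike the other members, with its highest signal in wild type retina whether or not RPE was attached. It measured 7.34, 7.38 and 7.56 in mutant RPE-attached retina, against 9.98, 9.79 and 9.84 in wild type RPE-attached retina. In bare retina it measured 6.42, 6.74 and 6.56 in mutants, against 9.61, 9.75 and 9.74 in wild type. In whole embryos it measured 5.57, 5.71 and 5.64 in mutants, against 6.76, 6.82 and 6.73 in wild type. In each of the 3 tissues the genotypes were apart, and the highest mutant bare retina array, at 6.74, lay within the range of wild type whole embryos.

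rgrb resembled stra6. It measured 9.66, 9.55 and 9.30 in mutant RPE-attached retina and 9.40, 9.08 and 8.90 in its wild type counterpart. In bare retina it measured 7.38, 7.25 and 7.59 in mutants and 7.15, 7.03 and 7.32 in wild type, and in whole embryos 9.15, 8.90 and 9.18 in mutants and 9.02, 8.85 and 9.38 in wild type. The 4 RPE-attached and embryo groups overlapped their neighbours in the order of means, the 6 bare retina arrays lay below all of them, and the 2 bare retina groups overlapped. Of the close relatives of these genes, stra6l was the 1 matched by symbol, with 4.34 to 4.64 in the 12 retinal arrays and no call in any comparison. rpe65b, rpe65c, rlbp1b and rgra were looked for in the same way and matched no probe set.

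**Figure D1:**
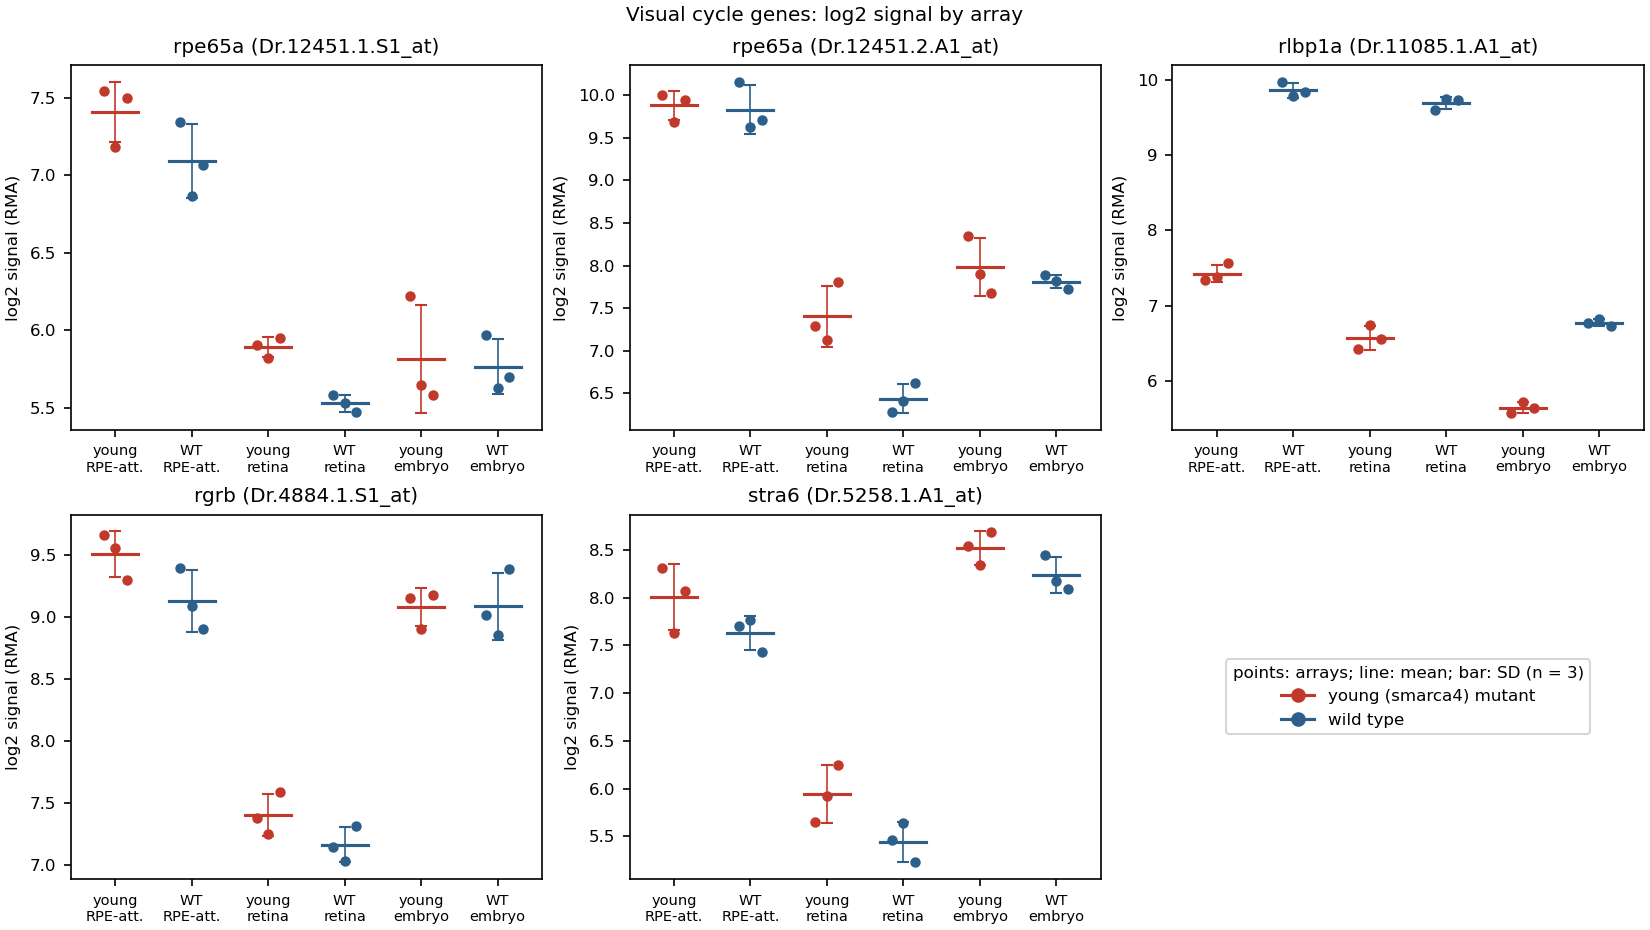
Log2 signal (vertical axis, a separate range in each panel) of the 5 probe sets on every array, by group, with the mean as a line and the SD as a bar (n = 3). The bare retina arrays are lowest for rgrb and stra6, while for rlbp1a each mutant group lies below the wild type group of the same tissue.

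RPE-attached retina was compared with bare retina to find what attached RPE adds. In wild type, 4 of the 5 probe sets were higher with RPE attached and none was lower, in a comparison where 29.2% of all probe sets were called in either direction. The isomerase gene rpe65a was 10.5-fold higher on its A1 probe set (3.39 ± 0.18, adjusted p = 1.26e-09), the difference with the smallest p and the largest rise of all those tested, and 2.96-fold higher on its S1 probe set (1.56 ± 0.15, adjusted p = 1.18e-06). The retinol receptor stra6 was 4.56-fold higher (2.19 ± 0.17, adjusted p = 1.16e-07) and rgrb 3.89-fold higher (1.96 ± 0.15, adjusted p = 7.58e-08). rlbp1a was not called: 9.87 ± 0.10 with RPE attached and 9.70 ± 0.08 without (SD, n = 3 each), a difference of 0.17 with a 95% interval from -0.04 to 0.38. Its RPE-attached arrays, at 9.79 or more, nevertheless all lay above its bare arrays, at 9.75 or less. In pooled tissue more cells of a type and more RNA per cell cannot be told apart. The median difference was 1.96 over the 5 probe sets and 0.04 over all probe sets tested.

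In mutants all 5 probe sets were higher with RPE attached, where 40.3% of all probe sets were called. rpe65a was 5.55-fold higher on the A1 probe set (2.47 ± 0.18, adjusted p = 9.09e-09) and 2.86-fold higher on the S1 probe set (1.52 ± 0.15, adjusted p = 4.18e-07). rgrb was 4.29-fold higher (2.1 ± 0.15, adjusted p = 6.79e-09) and stra6 4.19-fold higher (2.07 ± 0.17, adjusted p = 4.85e-08). rlbp1a was 1.81-fold higher (0.86 ± 0.10, adjusted p = 2.49e-06), with every RPE-attached array above every bare array. The median difference was 2.07 over the 5 probe sets and 0.10 over all probe sets.

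Genes of pigment cells were read beside the members. Of 16 measured genes of RPE pigment and identity, 9 were higher and 1 was lower with RPE attached in mutants. In wild type 7 were higher and 1 was lower. The shares of all probe sets called were 40.3% in mutants and 29.2% in wild type. pmelb, a melanosome matrix protein, differed by 3.29 ± 0.21 in mutants and 2.86 ± 0.21 in wild type, dct by 3.04 ± 0.15 and 2.56 ± 0.15, and tspan36, a tetraspanin of pigment cells, by 1.54 ± 0.13 and 1.45 ± 0.13, in the same order. The gene called lower was slc16a1b, a monocarboxylate transporter, in mutants (-0.33) and otx2b, a homeobox factor of retina and RPE, in wild type (-0.48).

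Markers of other cell types were read in the same comparison, where 40.3% of all probe sets were called in mutants and 29.2% in wild type. Of 11 neural crest and chromatophore genes, 8 were higher in mutants and 7 in wild type, and none was lower. Their summed linear signal ran from 2790 to 3065 in mutant RPE-attached retina, against 1151 to 1323 in mutant bare retina, and in wild type from 2671 to 2910 with RPE attached, against 1329 to 1679 in bare retina. crestin, a neural crest transcript of zebrafish, was higher by 3.45 ± 0.14 in mutants and 2.00 ± 0.14 in wild type. gch2, an enzyme of pteridine pigment synthesis in xanthophores, was higher by 1.60 ± 0.31 in mutants and 2.90 ± 0.31 in wild type. mitfa, called higher in both genotypes, counts in this list and in that of RPE pigment and identity.

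Of 11 vessel genes, 7 were higher with RPE attached in mutants and 8 in wild type, and their sums ran from 972 to 1135 in mutants with RPE attached, 789 to 801 in wild type with RPE attached, 484 to 526 in mutant bare retina and 532 to 572 in wild type bare retina. Of 18 cartilage and mesenchyme genes, 13 were higher in mutants and 9 in wild type. Their sums ran from 1839 to 2322 in mutant and 1195 to 1813 in wild type RPE-attached retina, and from 819 to 935 in mutant and 842 to 888 in wild type bare retina. Of 23 muscle genes, 8 were higher in each genotype, and their sums with RPE attached were 1305 to 2059 in mutants and 1493 to 1850 in wild type, against 1166 to 1300 in mutant bare retina and 1227 to 1306 in wild type bare retina. None of these 3 lists had a gene called lower. Of 15 red blood cell genes, 4 were higher in mutants, and in wild type 1 was higher (hbbe2) and 1 was lower (cahz, also counted as a Muller glia gene). The shares of muscle and red blood cell genes called were near or below those of all probe sets.

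Of 8 lens genes, 1 was higher and 3 were lower with RPE attached in mutants, and 2 were higher and none was lower in wild type. The connexin gene gja3 was higher in both (0.64 ± 0.13 in mutants and 0.53 ± 0.13 in wild type), and gja8b, another connexin gene, was higher in wild type (0.44 ± 0.13). The crystallin genes cryba4 (-2.32 ± 0.44), crybb1 (-2.25 ± 0.53) and crygmxl2 (-2.01 ± 0.37) were lower in mutants. The lens sum ran from 403 to 531 in mutant RPE-attached retina, against 476 to 1799 in mutant bare retina, and in wild type from 433 to 501 with RPE attached, against 357 to 381 in bare retina. The part of these tissues in the members' differences was not tested.

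The next comparison asked whether the difference made by attached RPE was itself unlike between genotypes. It was called for 2 of the 5 probe sets, in opposite directions, where 20.2% of all probe sets were called. rpe65a on its A1 probe set gained less in mutants than in wild type (-0.92 ± 0.26, adjusted p = 0.0164), and rlbp1a gained more (0.69 ± 0.14, adjusted p = 0.00258). For rpe65a the RPE-attached means were nearly level, 9.88 ± 0.17 in mutants and 9.83 ± 0.29 in wild type (SD, n = 3 each), and the bare retina means were not, 7.41 ± 0.36 in mutants and 6.44 ± 0.17 in wild type. The probe sets of rpe65a disagreed, since the S1 probe set gave -0.05 ± 0.22 (adjusted p = 0.903, 95% interval from -0.50 to 0.41). The A1 call was lost without wild type RPE-attached replicate 1 (-0.75, adjusted p = 0.051). rgrb (0.14, 95% interval from -0.31 to 0.59) and stra6 (-0.12, from -0.64 to 0.39) were not called.

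The same contrast was also taken on the linear scale, with no test. The excess of linear signal in RPE-attached over bare retina on the rpe65a A1 probe set was 772 ± 67.5 (SE from the spread between arrays) in mutants and 835 ± 111 in wild type. On the S1 probe set it was 111 ± 12.9 in mutants and 91.5 ± 13.5 in wild type. For rlbp1a it was 76.9 ± 10.4 in mutants and 104 ± 45.9 in wild type. For rlbp1a, the S1 probe set of rpe65a and stra6 (given below), this order of the genotypes was opposite to that of the log2 differences.

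The excess of rgrb was 561 ± 54.2 in mutants and 421 ± 58.2 in wild type, and that of stra6 was 200 ± 35.8 in mutants and 156 ± 14.4 in wild type. The excess in mutants minus that in wild type was -62.6 ± 130 and 19.8 ± 18.7 for rpe65a (A1 and S1), -26.9 ± 47.1 for rlbp1a, 140 ± 79.6 for rgrb and 44.1 ± 38.5 for stra6 (SE, no test). The difference between genotypes was called for 1 of 16 pigment and identity genes, a share below the 20.2% of all probe sets. The gene was otx1, a relative of otx2b (0.64 ± 0.19, adjusted p = 0.0207). Of 11 neural crest and chromatophore genes, 2 gained more in mutants and 1 gained less, beside the same 20.2%. crestin (1.44 ± 0.19) and sox10, a neural crest transcription factor (0.58 ± 0.17), gained more, and gch2 gained less (-1.30 ± 0.44).

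**Figure D2:**
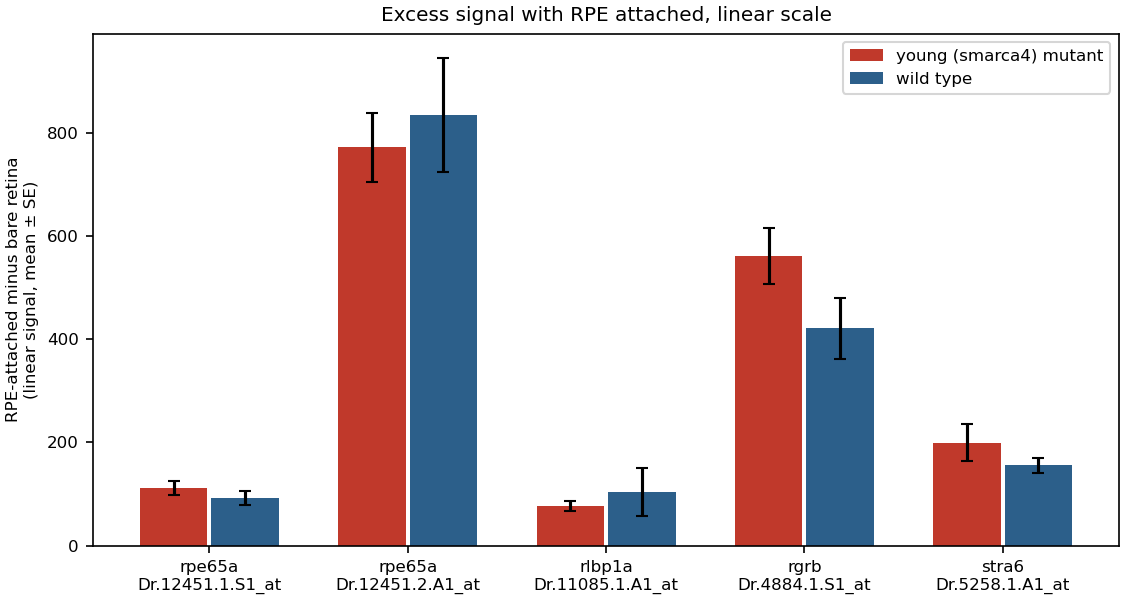
Linear signal in RPE-attached retina minus that in bare retina (vertical axis, from 0) for the 5 probe sets in mutants and wild type, with the SE from the spread between 3 arrays a group. For rpe65a on the A1 probe set the bars stand at 772 in mutants and 835 in wild type, and for rgrb at 561 in mutants and 421 in wild type.

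**Figure D3:**
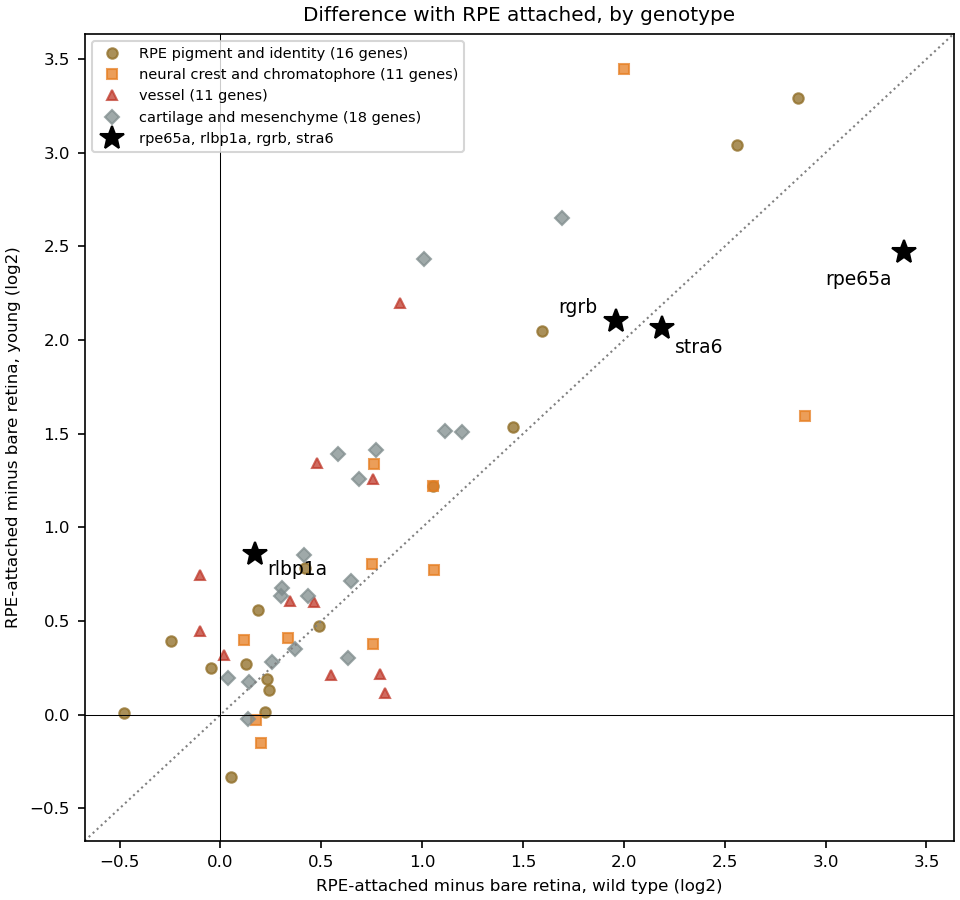
Log2 difference of RPE-attached over bare retina in mutants (vertical axis) against that in wild type (horizontal axis) for the 4 genes (stars, rpe65a by its A1 probe set) and for genes of 4 marker lists, with a dotted line of equal difference. rpe65a lies below the line at 2.47 in mutants and 3.39 in wild type, rlbp1a above it at 0.86 in mutants and 0.17 in wild type, and crestin far above it.

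Mutant retina was compared with wild type retina for genes that depend on Smarca4 there. In the fit over all arrays 1 probe set was higher, 1 was lower and 3 were not called, where 18.3% of all probe sets were called. rlbp1a fell 8.74-fold (-3.13 ± 0.10, adjusted p = 1.09e-13), the smallest p of the 15502 probe sets and the 8th largest fall. rpe65a rose 1.95-fold on its A1 probe set (0.97 ± 0.18, adjusted p = 0.000522). The S1 probe set of rpe65a (0.36 ± 0.15, adjusted p = 0.124), rgrb (0.24 ± 0.15, adjusted p = 0.354) and stra6 (0.50 ± 0.17, adjusted p = 0.0534) were not called. stra6 was called without mutant replicate 1 (adjusted p = 0.0218) and without wild type replicate 2 (adjusted p = 0.0405). The median difference was 0.36 over the 5 probe sets and 0.04 over all.

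Arrays of the same replicate number deviated together among the retina and embryo groups, and when that number was fitted as a block over those 12 arrays all 5 probe sets were called, where 31.0% of all probe sets were. The adjusted p was then 0.000497 for rpe65a on the A1 probe set, 0.0199 for rpe65a on the S1 probe set, 0.0305 for rgrb, 0.0231 for stra6 and 5.19e-12 for rlbp1a. The 4 probe sets of rpe65a, rgrb and stra6 were higher in the mutant in 3 of 3 numbered pairs, and rlbp1a was lower in 3 of 3. The numbered differences were 1.01, 0.71 and 1.19 for rpe65a on the A1 probe set and 0.19, 0.28 and 1.03 for stra6. The stra6 difference was far larger in the pair of replicate 3 than in the others, and that of rgrb was even, at 0.23, 0.21 and 0.27.

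Pigment genes were also measured in these bare retinas. dct averaged 7.38 ± 0.21 in mutant and 7.32 ± 0.17 in wild type retina (0.06 ± 0.15, adjusted p = 0.868). pmelb averaged 6.19 ± 0.27 in mutant and 5.76 ± 0.23 in wild type retina (0.43 ± 0.21, adjusted p = 0.209, and 0.00273 with the replicate block). Of the 16 pigment and identity genes, 1 was called, otx2b, which rose (0.61 ± 0.13, adjusted p = 0.0016), where 18.3% of all probe sets were called. With the replicate block 2 rose, pmelb being the second, where 31.0% of all probe sets were called.

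Without otx2b, which makes up 72.2% to 77.2% of the list's summed linear signal in mutant retina and 63.6% to 70.1% in wild type retina, the sum ran from 1882 to 1934 in mutant retina and from 1882 to 1904 in wild type retina. This sum of 15 genes was chosen after its values were seen. The lens list, 8 genes, summed to 1627, 1799 and 476 in the mutant retina arrays, against 357 to 381 in wild type retina, with 3 crystallin genes called higher. Whether RPE or lens left on the dissected retina has a part in the differences of rpe65a, rgrb and stra6 was not tested. Of these differences, only that of rpe65a on its A1 probe set was called without the replicate block.

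In RPE-attached retina 1 probe set was higher in mutants, 1 was lower and 3 were not called, where 46.9% of all probe sets were called. rlbp1a fell 5.43-fold (-2.44 ± 0.10, adjusted p = 3.83e-12), the third smallest p. rgrb was 1.3-fold higher (0.38 ± 0.15, adjusted p = 0.0459), with overlapping arrays, and the call was lost without any 1 of wild type replicates 2 and 3 and mutant replicates 1 and 2 (adjusted p from 0.106 to 0.206). stra6 (0.37 ± 0.17, adjusted p = 0.0844) and the S1 probe set of rpe65a (0.31 ± 0.15, adjusted p = 0.1) were not called. Each was called without mutant replicate 2 (adjusted p = 0.0147 for stra6 and 0.046 for the S1 probe set), the S1 probe set also without wild type replicate 1 (adjusted p = 0.0399). The A1 probe set of rpe65a differed by 0.05, with a 95% interval from -0.33 to 0.43.

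Of the 16 pigment and identity genes, 7 rose and 1 fell in these mutant pools, a share near the 46.9% of all probe sets. The rises with the smallest p were those of otx2b (1.1 ± 0.13), otx1 (0.76 ± 0.13) and the basic helix-loop-helix gene bhlhe40 (0.51 ± 0.10), pmelb (0.86 ± 0.21) and dct (0.55 ± 0.15) rose as well, and slc16a1b fell (-0.36 ± 0.11). Without otx2b the list summed to 4599 to 4908 in mutant and 3349 to 4096 in wild type RPE-attached retina.

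Genes of other tissues were also called between these pools, where 46.9% of all probe sets were called. Of 18 cartilage and mesenchyme genes, 8 were higher in mutants and none was lower, with the collagen gene col1a1a at 1.37 ± 0.22. Of 11 vessel genes, 4 were higher and 2 lower. The endothelial gene plvapb (0.92 ± 0.11) and the VEGF receptor gene kdrl (0.65 ± 0.16) were among the higher. Those lower were flt4 (-0.53 ± 0.10) and fli1rs (-0.64 ± 0.13). Of 11 neural crest and chromatophore genes, 1 was higher, crestin (1.53 ± 0.14), and 1 was lower, gch2 (-1.25 ± 0.31). Of 15 red blood cell genes, 5 were higher and 1 was lower. Of 23 muscle genes 1 was higher and 1 lower, and of 8 lens genes none was called. Apart from the vessel list, the shares called in these lists were near or below that of all probe sets. The part of these tissues in the members' differences between the RPE-attached pools was not tested.

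In whole embryos rlbp1a alone was called: none of the 5 probe sets was higher and 1 was lower, where 6.73% of all probe sets were called. rlbp1a fell 2.19-fold in mutants (-1.13 ± 0.10, adjusted p = 4.27e-07). The 95% intervals of the other differences ran from -0.21 to 0.55 for rpe65a on the A1 probe set, -0.27 to 0.37 on the S1 probe set, -0.32 to 0.31 for rgrb and -0.08 to 0.65 for stra6.

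**Figure D4:**
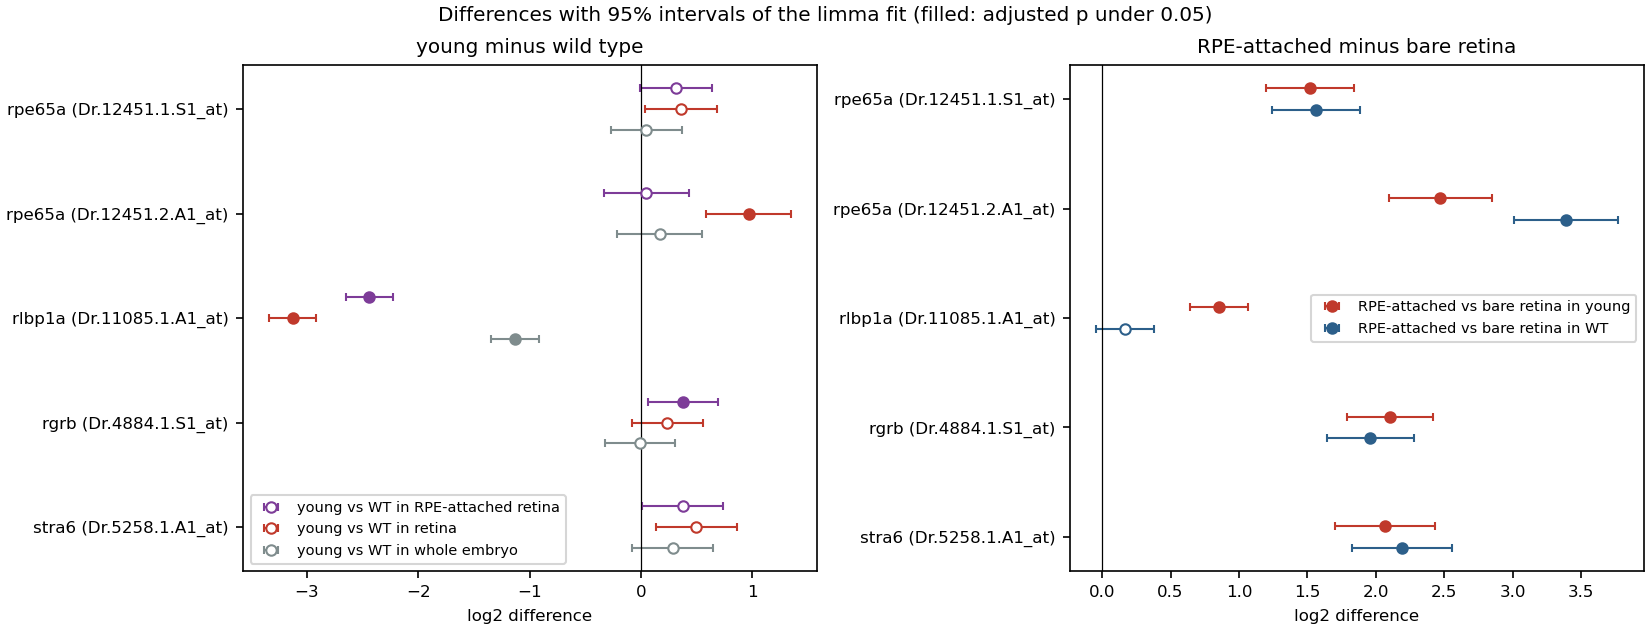
Log2 differences (horizontal axes) with 95% intervals for the 5 probe sets, mutant minus wild type in 3 tissues on the left and RPE-attached minus bare retina in each genotype on the right, with filled points for calls at an adjusted p under 0.05. rlbp1a lies far below 0 in each tissue on the left, and it is the 1 open point on the right, in wild type.

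The genotype difference of rlbp1a was larger in retina than in whole embryos (-2.0 ± 0.14, adjusted p = 5.51e-08), the 1 call among the 5 probe sets where 6.88% of all probe sets were called. rpe65a on its A1 probe set gave 0.80 ± 0.26 (adjusted p = 0.0707), and was called with the replicate block (adjusted p = 0.038, where 14.9% of all probe sets were called). rgrb (0.25, 95% interval from -0.20 to 0.69), stra6 (0.21, from -0.30 to 0.73) and the S1 probe set of rpe65a (0.31, from -0.14 to 0.77) were not called with or without the block.

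Retina was set against whole embryo to see where the genes were most abundant. In mutants 1 probe set was higher in retina and 3 were lower, where 69.6% of all probe sets were called, and in wild type likewise 1 was higher and 3 were lower, where 64.1% were called. rlbp1a was 1.91-fold higher in mutant retina than in mutant embryos (0.93 ± 0.10, adjusted p = 1.26e-07) and 7.61-fold higher in wild type retina than in wild type embryos (2.93 ± 0.10, adjusted p = 1.98e-15). stra6 was 6-fold lower in retina in mutants (-2.58) and 6.95-fold lower in wild type (-2.80), and rgrb was 3.19-fold lower in mutants (-1.67) and 3.78-fold lower in wild type (-1.92).

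rpe65a on the A1 probe set was 1.49-fold lower in retina than in embryos in mutants (-0.57 ± 0.18, adjusted p = 0.00902) and 2.59-fold lower in wild type (-1.37 ± 0.18, adjusted p = 2.16e-06). The mutant call was lost without mutant embryo replicate 1 (-0.39, adjusted p = 0.0713) and without mutant retina replicate 2 (-0.43, adjusted p = 0.0598). The S1 probe set was not called in either genotype (0.07 in mutants and -0.24 in wild type).

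The members stand among other genes of retinoid uptake, storage and conversion. Of 58 names in the list of such genes, 19 beside the members were on the array, and 10 of these had a group mean of at least 5.15. In mutant against wild type retina none was called higher and 2 were called lower, a share below the 18.3% of all probe sets called. With the replicate block, where 31.0% of all probe sets were called, rdh10b, a retinol dehydrogenase, was called higher as well (0.28, adjusted p = 0.0168). rbp4l, a relative of the plasma retinol carrier that is expressed in photoreceptors in zebrafish, fell to 8.80 in mutant retina, against 10.35 in wild type retina (-1.55 ± 0.12, adjusted p = 1.16e-08). rbp2a, a cellular retinol-binding protein, fell to 5.35 in mutant retina, against 6.30 in wild type retina (-0.95 ± 0.18, adjusted p = 0.000492).

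In RPE-attached retina 4 of the 19 were higher in mutants and 4 were lower, a share below the 46.9% of all probe sets called. rdh1, a retinol dehydrogenase (0.55 ± 0.10), rdh14b, another dehydrogenase of that family (0.45 ± 0.13), degs1, a sphingolipid desaturase proposed as a retinol isomerase of Muller cells in chicken (0.42 ± 0.11), and scarb2a, a scavenger receptor (0.72 ± 0.15), were higher. rbp2a (-1.48 ± 0.18), rbp4l (-0.94 ± 0.12), rbp3, the retinoid carrier between photoreceptors and RPE (-0.35 ± 0.10), and degs2 (-0.41 ± 0.13) were lower, although the group means of rbp3 and degs2 were all under 5.15. In whole embryos rbp2a was the 1 gene called, and was lower (-0.60 ± 0.18, adjusted p = 0.0454), where 6.73% of all probe sets were called. With the replicate block 2 were lower, rbp2a and rbp4l (-0.38, adjusted p = 0.00562), and scarb2a was higher (0.35, adjusted p = 0.0422).

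With RPE attached, 6 of the 19 were higher in each genotype and none was lower, where 40.3% of all probe sets were called in mutants and 29.2% in wild type. bco1, which cleaves beta-carotene to retinal, was higher by 0.91 ± 0.12 in mutants and 0.75 ± 0.12 in wild type, and rbp3 by 0.29 ± 0.10 in mutants and 0.67 ± 0.10 in wild type. degs1 (0.78 ± 0.11), rdh1 (0.58 ± 0.10), rbp4l (0.42 ± 0.12) and bco2l (0.32 ± 0.12) were called in mutants and not in wild type. scarb1, a carotenoid uptake receptor (0.41 ± 0.12), rbp2a (0.60 ± 0.18), degs2 (0.39 ± 0.13) and rbp4 (0.40 ± 0.14) were called in wild type and not in mutants. The group means of rbp3 and degs2 were all under 5.15, and rbp4 was under it in bare retina. The difference between genotypes itself was called for 3 genes, where 20.2% of all probe sets were called. They were rbp4l (0.61 ± 0.17), rdh1 (0.51 ± 0.14) and degs1 (0.50 ± 0.16), each with the larger gain in mutants.

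The median over the 19 genes was 0.16 in mutants and 0.07 in wild type for RPE attachment, beside 0.10 and 0.04 over all probe sets. The genotype effect of rbp4l also differed between retina and embryo (-1.17 ± 0.17, adjusted p = 0.000152). Against whole embryos, 5 of the 19 were higher and 7 lower in retina in mutants (6 and 7 with the replicate block). In wild type 4 were higher and 6 lower (6 and 8 with the block). Without the block 69.6% of all probe sets were called in mutants and 64.1% in wild type. rbp4, the plasma retinol carrier that Stra6 binds, had a mean of 4.79 in mutant retina and 11.85 in mutant embryos, and of 4.75 in wild type retina and 11.92 in wild type embryos.

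Retinoic acid is the other product of retinal, and 19 genes of its synthesis, breakdown, binding and receptors were measured. In mutant against wild type retina 4 rose and 3 fell, where 18.3% of all probe sets were called. With the replicate block 6 rose and 5 fell, where 31.0% of all probe sets were called. crabp1a, a cellular retinoic acid-binding protein, fell (-2.52 ± 0.15), its relative crabp2a rose (1.26 ± 0.13), and cyp26b1, which degrades retinoic acid, rose (1.12 ± 0.18). In RPE-attached retina 4 were higher and 7 lower in mutants, where 46.9% of all probe sets were called. There crabp1a differed by -2.82 ± 0.15 and cyp26b1 by 1.71 ± 0.18, whereas crabp2a differed by 0.34.

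Muller glia genes moved in both directions. Of 29 measured, 4 were higher and 7 lower in mutant against wild type retina, where 18.3% of all probe sets were called. Their median was -0.07. With the replicate block 7 were higher and 8 lower, where 31.0% of all probe sets were called. slc1a2b, a glutamate transporter (-1.52 ± 0.13), and the carbonic anhydrase cahz (-1.36 ± 0.23) fell, and id1, an inhibitor of differentiation (0.72 ± 0.14), rose. The summed signal of the 29 genes ran from 13585 to 14168 in mutant retina and from 14226 to 14730 in wild type retina. In RPE-attached retina 6 were higher and 9 lower in mutants, where 46.9% of all probe sets were called. The sum there ran from 13724 to 14256 in mutants and from 12785 to 13756 in wild type. Most of the list was brighter in whole embryos than in retina, so it does not read Muller glia alone. In retina against whole embryos 4 were higher and 21 lower in wild type (5 and 21 with the replicate block). In mutants 5 were higher and 19 lower, with or without the block. Without it 64.1% of all probe sets were called in wild type and 69.6% in mutants.

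Among photoreceptor genes, falls outnumbered rises. Of 33 measured, which include rbp4l, 3 were higher and 12 lower in mutant against wild type retina, with a median of -0.12. The share of all probe sets called there was 18.3%. With the replicate block 3 were higher and 14 lower, where 31.0% of all probe sets were called. In RPE-attached retina 1 was higher and 15 lower, with a median of -0.24. The share called there was near the 46.9% of all probe sets. rcvrn2, a calcium sensor, fell by 2.27 on the log2 scale in retina (-2.5 ± 0.17 in RPE-attached retina). gngt1, a transducin subunit, fell by 1.40 in retina (-1.81 ± 0.11 in RPE-attached retina). The sum over the list ran from 17534 to 18673 in mutant and 19002 to 20334 in wild type retina, and from 10081 to 12742 in mutant and 15113 to 17004 in wild type RPE-attached retina. The part of these shifts in the fall of rlbp1a was not tested.

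**Figure D5:**
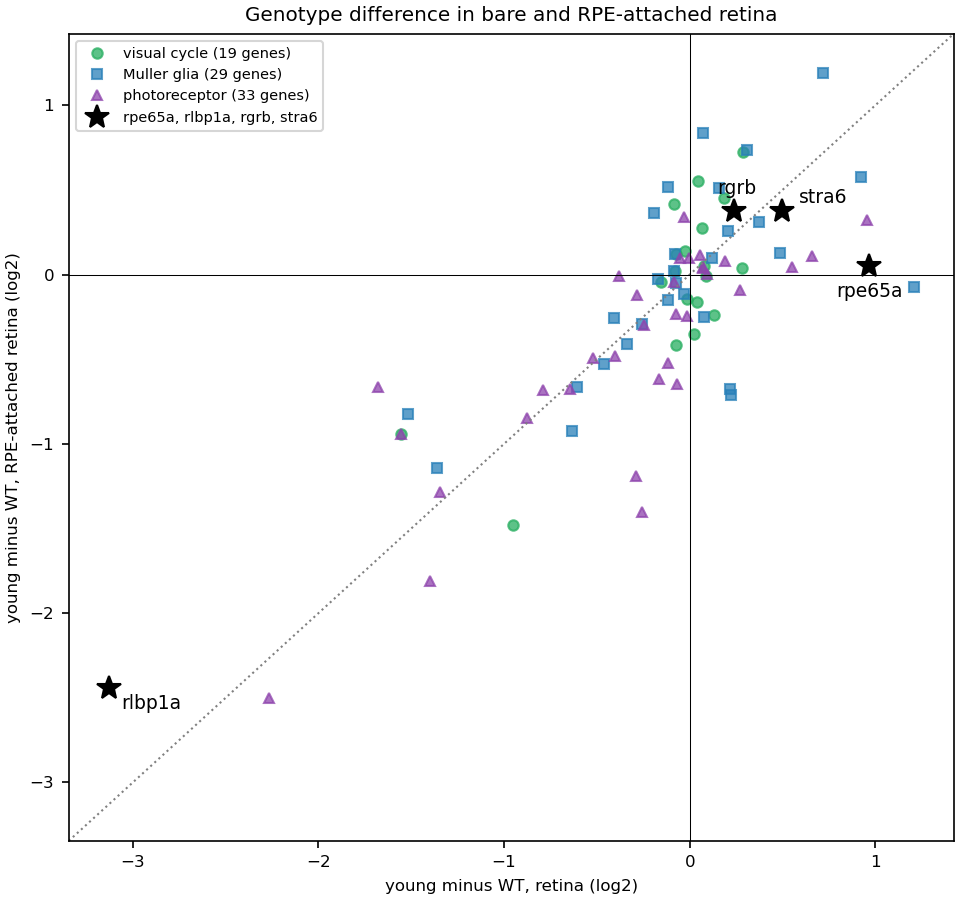
Log2 difference of mutant from wild type in RPE-attached retina (vertical axis) against that in bare retina (horizontal axis) for the 4 genes (stars, rpe65a by its A1 probe set) and for other visual cycle, Muller glia and photoreceptor genes, with a dotted line of equal difference. rlbp1a lies furthest left of the genes shown, at -3.13 in bare retina and -2.44 in RPE-attached retina. The photoreceptor gene rcvrn2, at -2.27 and -2.50, lies slightly lower. The stars of rpe65a, rgrb and stra6 lie at or above 0 on both axes.

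The genes most like each member were taken by Pearson correlation over the 18 arrays, among 4514 probe sets with 1 symbol whose group means spanned at least 1. These correlations are descriptions, since the arrays fall into 6 groups that share tissue and genotype. The A1 probe set of rpe65a was closest to pmelb (r = 0.939), dct (0.935), nme4 (0.887) and tom1 (0.883), and the S1 probe set to nme4 (0.941), pmelb (0.904), bhlhe41 (0.895) and rsrp1 (0.891). rgrb was closest to tspan36 (0.967), slc2a15b (0.966), phyhd1 (0.952) and glb1l (0.946). stra6 was closest to tspan36 (0.969), snai1a (0.953), slc2a15b (0.952) and fhl3a (0.945). rlbp1a was closest to the protocadherin gene pcdh10a (0.975), gngt1 (0.973), the glycine receptor gene glra4b (0.973) and zdhhc8b (0.969).

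The members fell into unlike patterns among themselves. Over the 18 arrays the 2 probe sets of rpe65a correlated at 0.942 and rgrb with stra6 at 0.927. rpe65a on its A1 probe set correlated with rgrb at 0.797 and with stra6 at 0.609. rlbp1a correlated with the A1 probe set of rpe65a at 0.105, with rgrb at -0.235 and with stra6 at -0.443.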

How the data were processed

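The deposited values are log2 signals that the authors summarized per probe set with RMA, as the series design states. Per the submitters' processing notes, affy was run in R 2.2.0. The raw scans were not used here. Of 15617 probe sets, 115 array controls were left out. Symbols came from the platform annotation (1 symbol for 10795 probe sets, several for 135, none for 4572), with 1 updated through its Entrez identifier. For a gene with several probe sets, list counts use the one that is brightest over all arrays.

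A mean per group was fitted over all 18 arrays in limma 3.58.1 under R 4.3.3, with empirical Bayes moderation. The code was run on data simulated with independent noise of equal spread in all groups, for the retina comparison alone. That run does not cover the shared deviations or the unequal spread of these arrays. Intervals are those of the moderated fit. The p-values measure only the spread between pools, and the number of arrays limits the precision. Plots used matplotlib 3.10.9 in Python 3.11.15. The submitters' way of estimating RPE values was not used here.

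The members, the lists and the rule for naming genes were chosen with earlier results of these data known. That rule named every member probe set, up to 8 called genes of the visual cycle list and up to 3 of each other list per comparison by smallest p, and the 4 genes most like each member probe set. Genes named beside these, among them dct, pmelb, tyr, gfap and glula in the check of the labels, pmelb and dct beside mutant retina, genes whose calls changed with the block, and genes given because few were called, were chosen after their values were seen.

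No label says that replicate numbers pair samples. Deviations from group means correlated across probe sets between same-numbered arrays at 0.29 to 0.60 in all 18 comparisons among retina and embryo groups, and at -0.20 to 0.16 in 27 with an RPE-attached group. The hybridization controls were highest in replicate 1 in each retina and embryo group. The block over those 12 arrays is therefore given beside the members' calls it changes and the counts of the visual cycle, retinoic acid, pigment, Muller glia and photoreceptor lists it changes in the comparisons reported.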

Additional observations from a re-analysis of the deposited data

Results flagged for a closer look

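The effect of attached RPE differed between genotypes for rpe65a and rlbp1a by a test of the difference itself, and the genotype effect on rlbp1a differed in this way between tissues. The A1 probe set of rpe65a gained 2.47 with RPE attached in mutants and 3.39 in wild type, a difference of -0.92 ± 0.26 (limma adjusted p = 0.0164), while the S1 probe set of the same gene gave -0.05 ± 0.22. The A1 call was lost without 1 of the arrays (limma adjusted p = 0.051) and at an adjusted p under 0.001. On the linear scale the mutant excess for the A1 probe set was 0.925 times the wild type excess. The difference of these excesses was -62.6 ± 130 (SE, no test).

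rlbp1a gained 0.86 with RPE attached in mutants and 0.17 in wild type, a difference of 0.69 ± 0.14 (limma adjusted p = 0.00258). This call was lost at an adjusted p under 0.001. On the linear scale the mutant excess of rlbp1a was 0.741 times the wild type excess, with a difference of -26.9 ± 47.1 (SE, no test). The mutant difference of rlbp1a was -3.13 in retina and -1.13 in whole embryos, a difference of -2.0 ± 0.14 (limma adjusted p = 5.51e-08).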

How the results depend on the processing

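Every result was also computed at an adjusted p under 0.001, after quantile normalization again, with array medians subtracted, without dim probe sets, with trended and robust moderation, with array weights, in the compared groups alone, with the replicate number as a block, and without each array in turn. Fits without RPE-attached arrays were added after seeing the data. The calls of rlbp1a in mutants against wild type, and of rpe65a, rgrb and stra6 in RPE-attached against bare retina, were made under each of these that holds the groups compared, which fits without RPE-attached arrays and the block over embryo and retina arrays do not for the RPE-attached groups. The cause of the changes below was not tested.

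For mutant against wild type retina, the S1 probe set of rpe65a (0.36) was called with the replicate block over all arrays (adjusted p = 0.0312), with the block over embryo and retina arrays (0.0199) and in the compared groups alone (0.019). rgrb (0.24) was called with the block over embryo and retina arrays (0.0305). stra6 was called with medians subtracted (0.52, adjusted p = 0.0478), without dim probe sets (0.50, 0.0465), with array weights (0.52, 0.0229), with the block over embryo and retina arrays (0.50, 0.0231) and without RPE-attached arrays (0.50, 0.0432). It ran from 0.34 to 0.65 without 1 array, and was called without mutant retina replicate 1 and without wild type retina replicate 2.

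In RPE-attached retina the S1 probe set was called with the block over all arrays (0.31, adjusted p = 0.0313) and ran from 0.20 to 0.44 without 1 array. The A1 probe set turned to -0.042 under quantile normalization and ran from -0.055 to 0.21. rgrb lost its call at 0.001 (0.38), under quantile normalization (0.32, adjusted p = 0.0744), with array weights (0.36, 0.115) and in the compared groups alone (0.38, 0.0677), and ran from 0.26 to 0.51. stra6 ran from 0.22 to 0.56. In embryos rgrb turned to 0.022 with array weights. Without 1 array it ran from -0.12 to 0.14 there, and rpe65a from -0.15 to 0.17 (S1) and -0.017 to 0.32 (A1).

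rlbp1a was called higher with RPE attached in wild type under quantile normalization (0.34, adjusted p = 0.0186). The genotype differences of that effect lost their calls at 0.001 for rpe65a A1 (-0.92) and rlbp1a (0.69). On the linear scale the sign turned for rpe65a S1 (19.8), rlbp1a (-26.9) and stra6 (44.1), all within 2 SE of 0. Without 1 array rpe65a A1 ran from -1.06 to -0.72, S1 from -0.16 to 0.080 and stra6 from -0.28 to 0.063. The difference between retina and embryo for rpe65a A1 was called with array weights (0.87, adjusted p = 0.0355) and with the replicate block over all arrays (0.80, 0.0431) or over embryo and retina arrays (0.80, 0.038). Without 1 array it ran from 0.60 to 0.98 and was called in 2 of 12 such fits (lowest limma adjusted p = 0.0187). For mutant retina against embryo, rpe65a A1 lost its call at 0.001 (-0.57) and ran from -0.77 to -0.39, and S1 ran from -0.043 to 0.28.

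At 0.001 the other visual cycle genes called were 2 higher and 2 lower in RPE-attached retina, 0 lower in embryos, 2 higher with RPE attached in wild type and 3 in mutants, 0 for the difference between genotypes, 2 higher in wild type retina against embryos, and 2 higher and 4 lower in mutant retina against embryos. With every probe set counted, 1 was lower for the difference between genotypes. The block over all arrays changed no other call of a member.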
